A study of Mus musculus with 39 samples.

Results

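Of 165770 autosomal regions obtained by merging the 6 peak lists of an ATAC-seq comparison, 28866 held a peak in exactly 1 list, and these single-list regions are described here. Peaks of the 6 lists were joined where they overlapped by at least 1 bp, and an autosomal region was kept if only 1 of the lists had a peak in it. The single-list regions made up 17.4% of all merged regions, whereas 74590 regions were open in all 6 lists. The remaining regions had a peak in 2 lists (16366), 3 lists (17542), 4 lists (13485) or 5 lists (14921). The members were thus selected on the peak calls themselves, so their number, height, significance and distance to reproducible regions are given as a description, and only sequence, annotation and the RNA of neighbouring genes, which the rule did not use, were tested.

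The libraries came from sfGFP+ nuclei of the neocortex of adult male and female Arc-creERT2 mice that carried a R26 CAG-Sun1-sfGFP-Myc reporter, which places a fluorescent tag on the nuclear membrane of cells that express Arc. All mice received tamoxifen before a social interaction test, so both groups share the alleles, the drug and the stimulus, and there is no untreated group. The tag depends on Arc, an immediate early gene of active neurons, and so marks the cells that used this promoter while tamoxifen was present, not a single cell type. In INTACT, 3 libraries were made from nuclei captured with anti-GFP antibody on magnetic beads, and in FANS, 3 libraries were made from nuclei sorted by flow cytometry on DAPI and GFP with doublets removed. The 3 libraries of a technique are technical replicates, and the paper states that they came from the same biological source. It also states that both techniques used the same starting material. The SDs and p-values below thus measure the spread between libraries and not between animals. Whether a difference between the techniques recurs in another biological source was not tested. The lists hold no read counts, so the depth of the libraries is unknown. The labels name the material as activated neuronal nuclei. The promoters of 20 of 20 immediate early genes, 14 of 16 genes of excitatory neurons and 9 of 11 genes of all neurons were open in all 6 lists, beside 6 of 15 of inhibitory neurons, 6 of 14 of astrocytes, 11 of 14 of the oligodendrocyte lineage, 2 of 12 of microglia and 6 of 12 of vascular cells. Of all 24963 autosomal genes with a curated transcript, 14112 (56.5%) had such a promoter.

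In ATAC-seq, a transposase inserts sequencing adapters into DNA that is not wrapped tightly in nucleosomes, so that reads gather at promoters, enhancers and insulators. A peak caller then lists the places where reads stand above the local background of the same library. Promoters that are open in most cell types are often rich in GC and CpG, while enhancers lie mostly in introns and between genes and are more specific to a cell type. A region that a list lacks was not called there, which is not the same as closed chromatin. In pooled nuclei, a region that is open in fewer nuclei cannot be told apart from one that is open for less of the time in each.

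The 200 bp around the summit of the most significant single-list region of each library are shown with those of the 2 regions of highest significance in all 6 lists. They were read from the plus strand of the RefSeq genome of GRCm38.p6, the assembly that mm10 stands for, with the summit of FANS replicate 2 for the regions of all 6 lists, and capitals mark matches to any of 10 short motifs on either strand. These motifs were the CTCF core (AGGNGGC), AP-1 (TGANTCA), CRE (TGACGTCA), the SP/KLF GC box (GGGCGG), ETS (CCGGAA), NRF1 (GCGCATGC), YY1 (AAGATGGC), the NeuroD E-box (CAGATG), the NFI site (TTGGCA) and the RFX site (GTTGCC), and a match is a string of letters and not a bound site. In FANS replicate 1 the region lay at chr6:50312748-50312947, in an intron of Osbpl3, which encodes an oxysterol-binding protein. In FANS replicate 2 it lay at chr9:24745063-24745262, in an intron of Tbx20, a T-box factor of the heart. In FANS replicate 3 it lay at chr9:46246908-46247107, between genes, and the nearest start site was that of the apolipoprotein gene Apoa4, 6164 bp away. In INTACT replicate 1 it lay at chr8:54818732-54818931, in an intron of Gpm6a, which encodes a neuronal membrane glycoprotein. In INTACT replicate 2 it lay at chr14:106439379-106439578, in an intron of the non-coding gene 1700128A07Rik. In INTACT replicate 3 it lay at chr2:112196929-112197128, between genes, 41131 bp from the odorant receptor gene Olfr1318. The regions of all 6 lists lay between genes, at chr12:97061521-97061720 and chr13:85127060-85127259. Both shared a long run of letters with the mitochondrial genome of the assembly, of 149 and 82 bases, as did the region in Tbx20, with 37. Only 12 of the 74590 regions open in all 6 lists held such a run of at least 25 bases, so these 2 are not typical of them.
FANS replicate 1: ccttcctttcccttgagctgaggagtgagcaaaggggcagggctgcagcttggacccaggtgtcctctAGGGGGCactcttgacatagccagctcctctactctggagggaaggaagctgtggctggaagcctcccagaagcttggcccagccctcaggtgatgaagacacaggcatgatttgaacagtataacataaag
FANS replicate 2: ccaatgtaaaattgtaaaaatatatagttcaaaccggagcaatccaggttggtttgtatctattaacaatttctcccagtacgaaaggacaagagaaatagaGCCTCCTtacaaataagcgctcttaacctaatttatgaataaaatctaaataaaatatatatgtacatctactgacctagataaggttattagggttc
FANS replicate 3: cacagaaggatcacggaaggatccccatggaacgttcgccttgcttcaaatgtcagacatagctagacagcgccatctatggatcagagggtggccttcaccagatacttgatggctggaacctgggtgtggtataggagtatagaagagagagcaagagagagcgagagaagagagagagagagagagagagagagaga
INTACT replicate 1: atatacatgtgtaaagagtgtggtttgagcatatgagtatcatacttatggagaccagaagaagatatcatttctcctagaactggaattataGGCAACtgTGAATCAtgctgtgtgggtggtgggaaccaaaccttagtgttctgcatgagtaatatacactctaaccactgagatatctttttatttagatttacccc
INTACT replicate 2: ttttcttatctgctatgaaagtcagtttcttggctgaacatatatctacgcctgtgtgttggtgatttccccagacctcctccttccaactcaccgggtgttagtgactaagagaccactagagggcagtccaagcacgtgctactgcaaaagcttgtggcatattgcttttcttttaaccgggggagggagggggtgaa
INTACT replicate 3: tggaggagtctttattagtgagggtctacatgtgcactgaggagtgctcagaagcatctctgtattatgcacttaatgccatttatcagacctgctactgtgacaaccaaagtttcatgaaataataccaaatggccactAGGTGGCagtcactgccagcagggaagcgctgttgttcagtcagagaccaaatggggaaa
All 6 lists, highest: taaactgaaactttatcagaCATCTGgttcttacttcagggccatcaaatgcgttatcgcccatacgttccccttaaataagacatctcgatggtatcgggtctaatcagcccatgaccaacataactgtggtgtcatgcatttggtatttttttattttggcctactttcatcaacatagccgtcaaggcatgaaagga
All 6 lists, next: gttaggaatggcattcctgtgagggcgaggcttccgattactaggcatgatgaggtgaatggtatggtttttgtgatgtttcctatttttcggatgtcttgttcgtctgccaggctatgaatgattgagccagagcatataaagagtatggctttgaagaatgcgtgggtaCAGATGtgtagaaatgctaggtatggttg
None of the 6 single-list windows was a promoter, and none held more than 2 motif matches. Their GC content was 55.5, 31.5 and 50.5% in FANS replicates 1 to 3 and 37.5, 48.0 and 45.5% in INTACT replicates 1 to 3.

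The number of single-list regions was 4303, 5889 and 5659 in FANS replicates 1 to 3 and 4418, 2533 and 6064 in INTACT replicates 1 to 3. The lists themselves held 120945, 126190 and 127267 autosomal peaks in FANS and 109829, 96557 and 120198 in INTACT, so the single-list regions were 3.56 to 4.67% of a FANS list and 2.62 to 5.05% of an INTACT list. The lowest and the highest number both came from INTACT, and the techniques overlapped. FANS libraries had a mean of 5284 ± 857 (SD, n = 3), and INTACT libraries had 4338 ± 1767 (SD, n = 3). This order changed with the length of the lists and with the library left out. With members chosen anew, INTACT minus FANS was 300.5 without INTACT replicate 1 and 785 without INTACT replicate 2, but -3050, -2956 and -2856 without FANS replicates 1, 2 and 3. Leaving out a list leaves unequal numbers of lists per technique, and regions it shared with only 1 other list become single-list regions. When each list was reduced to its 96557 most significant peaks, the number of the shortest list, the counts were 2379, 2364 and 1982 in FANS and 3802, 6641 and 2927 in INTACT, and the techniques no longer overlapped, with INTACT the higher. INTACT replicate 2 thus had the fewest single-list regions among the lists as deposited and the most among lists of equal length. The equal-list counts ran in the exact reverse order of the deposited lengths, from 6641 for the shortest list to 1982 for the longest. Every INTACT list was shorter than every FANS list, so length and technique cannot be told apart here.

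**Figure D1:**
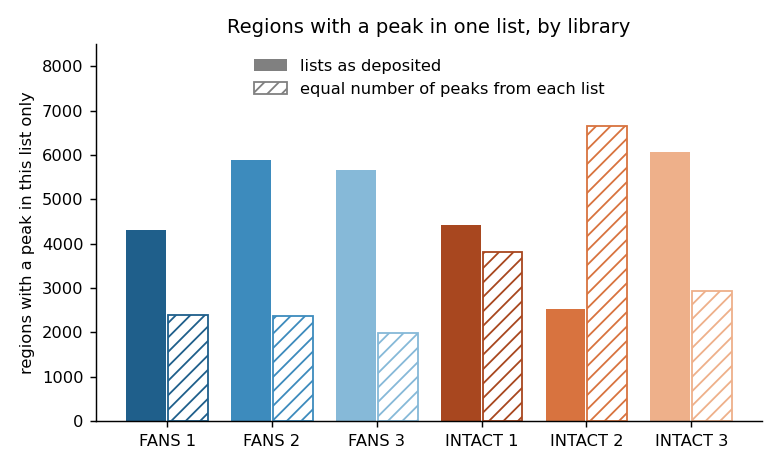
Number of autosomal regions with a peak in a single list, for each of the 6 libraries; filled bars are the lists as deposited and hatched bars the 96557 most significant peaks of each list. INTACT replicate 2 goes from the lowest bar (2533) to the highest (6641).

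By their medians, the single-list regions were lower, narrower and less significant than the regions open in all 6 lists. Height is the fold enrichment of the summit over the local background, and its median was 3.16, 3.18 and 3.20 in FANS replicates 1 to 3 and 3.42, 3.49 and 3.59 in INTACT replicates 1 to 3. For peaks of the same lists in regions open in all 6, the medians were 8.87, 9.17 and 9.41 in FANS and 8.24, 7.52 and 9.02 in INTACT. In every library the upper quartile of the single-list regions, 3.74 to 4.22, lay below the lower quartile of the regions open in all 6 lists, 5.37 to 6.36. These values come from the calls that chose the regions and were not tested.

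Column 9 of the lists, the -log10 q-value of the summit, gave the same picture. Its median was 3.68, 4.33 and 4.19 in FANS and 3.77, 3.39 and 4.58 in INTACT, against 21.1 to 46.5 in the regions open in all 6 lists. The lowest value of any list was 1.30, and 90.1, 96.6 and 92.1% of the single-list regions of FANS replicates 1 to 3 and 86.4, 93.2 and 97.1% of INTACT replicates 1 to 3 reached 2. A column 9 of at least 10 was reached by 217, 566 and 477 regions in FANS and by 142, 82 and 684 in INTACT, which is 3.21 to 11.3% of those of a library. The regions with a peak in 2 lists, just outside the rule, had medians of 4.77 to 6.27, and the median was higher with each further list in all 6 libraries. Read the other way, 32.1 to 51.1% of the peaks of a list with column 9 under 2 were in no other list, but only 0.00847 to 0.109% of those at 20 or more.

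**Figure D2:**
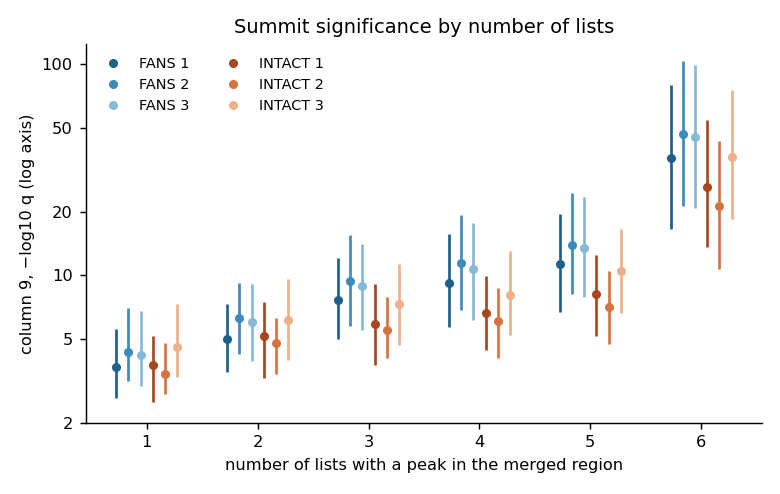
Column 9 (-log10 q of the summit, log axis) of the peaks of each library by the number of lists with a peak in the merged region; points are medians over peaks and lines run from the lower to the upper quartile. Medians of single-list regions lie between 3.39 and 4.58 and those of regions of all 6 lists between 21.1 and 46.5.

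The width of the single-list regions had a median of 226, 225 and 225 bp in FANS and 275, 300 and 239 bp in INTACT, against 550 to 582 bp in the regions open in all 6 lists. The narrowest peaks of the lists were 176 to 180 bp wide in FANS and 216, 233 and 189 bp in INTACT replicates 1 to 3, so the smallest width that a list could hold differed between libraries. The narrowest single-list region of each library had exactly this width.

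A few single-list regions were as high as regions open in all 6 lists. The region in Tbx20 was called in FANS replicate 2 with a height of 39.9 and a column 9 of 472, above 99.0% of the peaks of its list, and with the smallest width of that list, 176 bp. The nearest peak of another list was 28990 bp away, and Tbx20 had a mean of 0 normalized counts in the nuclear RNA of batch 1. The highest values of the other libraries were 43.0 in FANS replicate 1, 81.7 in FANS replicate 3 and 28.1, 22.4 and 54.0 in INTACT replicates 1 to 3. The Tbx20 region thus stood far above every other single-list region.

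The sequence of this region was compared with the mitochondrial genome of the same assembly, an examination that was chosen after its value was seen. It shared 22 words of 25 bases with mitochondrial DNA, the longest run being 37 bases. Among all 28866 single-list regions only 1 more shared such a word, a region of 427 bp on chromosome 18 with Asxl3 as the nearest gene, a column 9 of 8.72 and a shared run of 32 bases in INTACT replicate 3. Of the 74590 regions open in all 6 lists, 12 held such a word, among them 6 of the 10 with the highest column 9. Copies of mitochondrial DNA in the nuclear genome are common in mammals, and reads from either source align to both. Whether the reads at Tbx20 came from the nucleus was not tested.

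The other regions named by the rule for high column 9 are given with the nearest start site. In FANS, the next regions of replicate 1 were 7371 bp from Ppp2ca, which encodes a catalytic subunit of protein phosphatase 2A (column 9 of 37.9), and 84063 bp from Fam204a (34.5). Those of FANS replicate 2 were 37287 bp from Rasa2, a Ras GTPase-activating protein (47.1), and 26780 bp from Ppp1r26 (45.9), and those of FANS replicate 3 were 42125 bp from B930018H19Rik (39.6) and in the promoter of Tango2 (35.9). In INTACT replicate 1 they were 366467 bp from D830032E09Rik (21.5) and 337879 bp from Abra (20.5). In INTACT replicate 2 they were 125580 bp from Pclo, which encodes a scaffold protein of the presynaptic active zone (21.7), and within Erbb4, the neuregulin receptor, with the start site of Cps1 the nearest at 923568 bp (20.3). In INTACT replicate 3 they were in an intron of Gstcd (48.1) and 306953 bp from D830032E09Rik (36.2). Of these 18 regions, 11 lay between genes, 6 in introns and 1 in a promoter. The nearest start site was that of D830032E09Rik for 1 region each of INTACT replicates 1 and 3.

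Few of the single-list regions lay at promoters, taken as 1.5 kb to each side of a curated start site. The share of summits in promoters was 4.18, 4.65 and 4.49% in FANS and 2.24, 2.13 and 2.37% in INTACT, against 17.9 to 18.1% in the regions open in all 6 lists. Promoters make up 3.16% of autosomal bases, so the FANS shares lay above and the INTACT shares below that of the genome. The share of single-list regions was lower than that of the regions open in all 6 lists in 6 of 6 libraries, with a difference of -14.7 percentage points (two-sided exact permutation test by sign flips over libraries, p = 0.03125, the smallest possible with 6 libraries, 0.05625 after Benjamini-Hochberg adjustment over 9 measures).

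Introns held 58.0, 57.8 and 56.2% of the single-list summits in FANS and 46.0, 47.8 and 44.8% in INTACT. The regions open in all 6 lists had 40.8 to 40.9% in introns and the genome 37.2%. The excess over the regions open in all 6 lists was 10.9 percentage points and was seen in 6 of 6 libraries (exact permutation p = 0.03125, adjusted 0.05625). Among members with a column 9 of at least 5 it was 5.76 points (exact p = 0.25). The intergenic share did not have one direction. It was 30.9, 31.3 and 33.5% in FANS and 49.2, 47.9 and 49.6% in INTACT, against 38.2 to 38.3% in the regions open in all 6 lists and 57.3% of the genome (exact permutation p = 0.625, adjusted 0.625). FANS single-list regions as a whole were thus less often intergenic, and INTACT single-list regions more often, than the regions open in all 6 lists. Among members with a column 9 of at least 5 the intergenic share was 37.2, 35.2 and 38.4% in FANS and 57.3, 59.4 and 57.2% in INTACT, so that FANS lay on both sides of the regions open in all 6 lists.

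Exons outside promoters held 6.93, 6.16 and 5.80% of the single-list summits in FANS and 2.51, 2.21 and 3.20% in INTACT, against 2.83 to 2.92% in the regions open in all 6 lists and 2.37% of the genome. Coding exons accounted for 3.13 to 3.95% of the FANS members and 1.07 to 1.58% of the INTACT members. The untranslated 3' ends accounted for 2.39 to 2.55% in FANS and 1.03 to 1.40% in INTACT. Every FANS library lay above, and INTACT libraries on both sides of, the share of the regions open in all 6 lists. Over the 6 libraries the difference was 1.58 percentage points (exact permutation p = 0.219, adjusted 0.281).

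**Figure D3:**
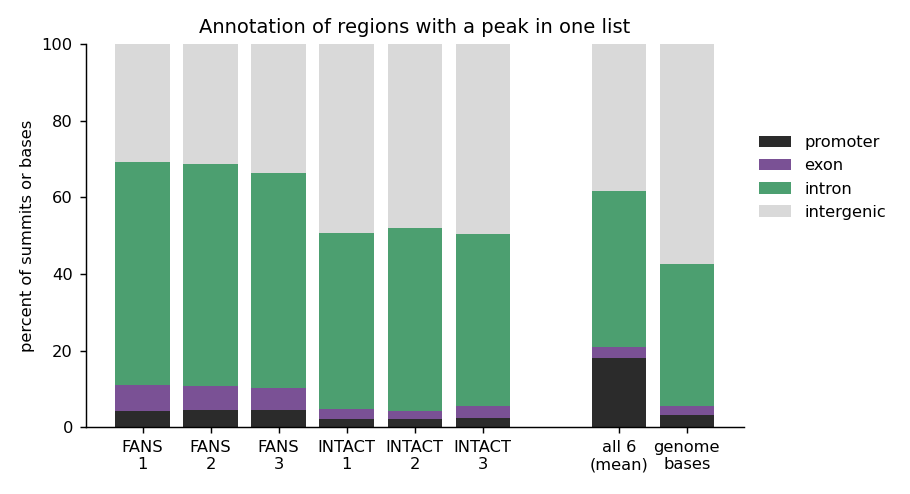
Percent of summits of single-list regions in promoters, exons, introns and between genes for each library, beside the mean of the 6 libraries for regions open in all 6 lists and the percent of autosomal bases. Intergenic summits make up 30.9 to 33.5% in FANS and 47.9 to 49.6% in INTACT.

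The median distance from a single-list summit to the nearest curated start site was 29.3, 27.7 and 29.4 kb in FANS and 61.3, 60.9 and 58.6 kb in INTACT, whereas it was 30.2 to 30.4 kb in the regions open in all 6 lists. The FANS members lay about as far from start sites as the reproducible regions did, and the INTACT members about 30 kb farther (mean of the 3 INTACT differences 30.1 kb, of the 3 FANS differences -1.56 kb). The gene with the nearest start site was detected in the nuclear RNA of batch 1, at a mean of at least 5 normalized counts, for 79.1, 80.7 and 79.9% of the FANS members and 73.1, 74.2 and 73.2% of the INTACT members. In the regions open in all 6 lists this share averaged 79.9% in both techniques. Neither measure differed over the 6 libraries between single-list regions and regions open in all 6 lists beyond the spread of the differences (exact permutation p = 0.25 and 0.188, both 0.281 adjusted).

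The GC content of the 200 bp around the summit set the 2 techniques apart. It averaged 49.3, 49.2 and 48.7% over the single-list regions of FANS replicates 1 to 3 and 42.9, 42.4 and 44.4% over those of INTACT replicates 1 to 3. The regions open in all 6 lists had 50.5 to 50.6% in FANS and 50.1 to 50.4% in INTACT, and the autosomes have 41.9%. Single-list regions had the lower GC in 6 of 6 libraries, with a mean difference of -1.51 points in FANS and -7.02 points in INTACT (all 6 libraries -4.27 points, exact permutation p = 0.03125, adjusted 0.05625). Over whole peaks in place of 200 bp the difference was -3.08 points (exact p = 0.0938). INTACT members lay close to the GC content of the genome, and FANS members close to that of reproducible open regions.

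The shape of the GC distribution also differed. Windows under 40% GC made up 7.27, 7.27 and 8.82% of the FANS members and 32.4, 35.9 and 24.9% of the INTACT members, beside 10.1 to 12.3% in the regions open in all 6 lists. Windows of 60% or more made up 4.59 to 5.32% in FANS and 0.632 to 1.45% in INTACT, beside 15.4 to 15.8%. Windows of high GC content were thus less common in both techniques than in regions open in all 6 lists.

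**Figure D4:**
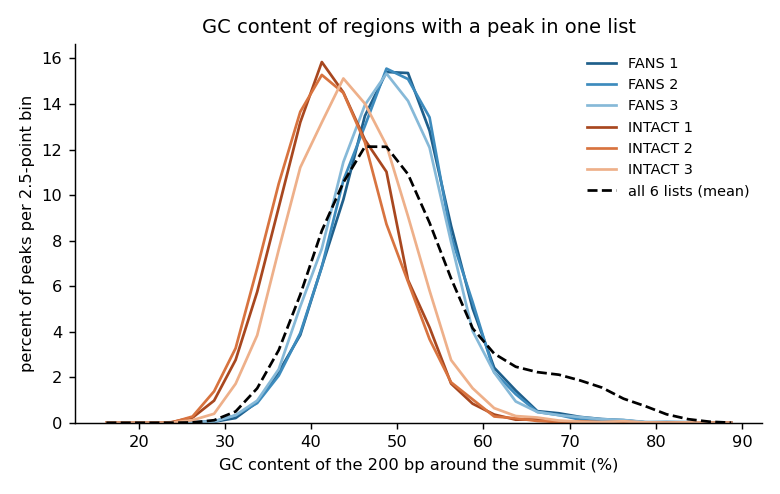
Distribution of the GC content of the 200 bp around the summit for the single-list regions of each library, in bins of 2.5 percentage points, with the mean of the 6 libraries for regions open in all 6 lists as a dashed line. The INTACT curves sit to the left of the FANS curves, with means of 42.4 to 44.4% and 48.7 to 49.3%.

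FANS members also had the higher mean GC content within annotation classes and ranges of significance. In promoters, the single-list members had a GC content of 55.4% ± 0.573 in FANS and 49.9% ± 1.56 in INTACT (SD over 3 libraries here and below), while all promoter peaks of the lists had 63.0% in both. In exons the values were 53.8% ± 0.536 and 47.1% ± 1.35, in introns 48.5% ± 0.310 and 43.7% ± 1.21, and between genes 48.3% ± 0.443 and 42.2% ± 0.905. For members with column 9 under 2 they were 49.0% ± 0.511 and 44.3% ± 1.13, and for members at 10 or more 49.1% ± 0.694 and 42.6% ± 1.03. The intergenic share grew with column 9 in both techniques, from 26.7% ± 3.73 under 2 to 43.7% ± 3.81 at 10 or more in FANS and from 38.4% ± 2.76 to 65.1% ± 1.58 in INTACT.

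INTACT and FANS members were compared library by library on 9 measures, and for all 9 the 3 INTACT values and the 3 FANS values did not overlap. With 3 libraries on each side an exact permutation test cannot go below p = 0.1, which each measure gave in the two-sided test, so none can pass 0.05 (0.1 after Benjamini-Hochberg adjustment over the 9). INTACT minus FANS was -5.83 points in GC content, -2.19 points in promoter share, -3.65 points in exon share and -11.1 points in intron share. It was -6.40 points in the share of detected nearest genes and -1.09 in CpG per 200 bp. INTACT was higher by 17.0 points in intergenic share, 6.36 points in repeat share and 31.5 kb in the distance to a start site. Without INTACT replicate 2 the difference in repeat share was 2.76 points, an alternative chosen after seeing the data. The whole lists differed in the same direction but by less in GC content (-1.29 points), intron share (-3.24 points), intergenic share (3.32 points) and distance to a start site (5.44 kb). The promoter share of the whole lists went the other way, 0.730 points higher in INTACT, and it overlapped between the techniques, as did the number of CpG (-0.0917 per 200 bp). In the regions open in all 6 lists the technique made a difference of -0.314 points in GC content and -0.0535 points in intergenic share. These are the same regions measured at each library's own summits. A region of a list also depends on the other 5 lists, since a longer list elsewhere leaves fewer single-list regions.

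CpG dinucleotides numbered 3.15, 3.08 and 3.02 per 200 bp in the FANS members and 1.94, 1.91 and 2.13 in the INTACT members, against 5.45 to 5.54 in the regions open in all 6 lists. The deficit was seen in 6 of 6 libraries (exact permutation p = 0.03125, adjusted 0.05625). Most CpG of mammalian promoters lie in CpG islands, and the low promoter share of the single-list regions stands beside this value.

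Bases soft-masked as repeats in the assembly made up 11.3, 12.1 and 12.1% of the window in the FANS members and 15.2, 25.4 and 14.0% in the INTACT members. The regions open in all 6 lists had 8.96 to 9.59%, and the genome has 33.5%. The single-list regions had more repeat sequence than the regions open in all 6 lists in 6 of 6 libraries, by 5.85 points (exact permutation p = 0.03125, adjusted 0.05625). INTACT replicate 2 stood apart from the other 5 libraries, and without it, with members chosen anew among the other lists, the difference was 4.07 points. Windows with at least 50% of their bases in repeats made up 16.9% of its members but 4.39 to 6.63% of those of the other libraries.

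Because of this, the most common word of 24 bases among the members of each library was sought, leaving out words with fewer than 12 different triplets, so that simple repeats were passed over. This search was chosen after the values of INTACT replicate 2 were seen. The words are shown because they mark the repeats that recur among the members, and the strand is arbitrary.
FANS replicate 1: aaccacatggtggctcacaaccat
FANS replicate 2: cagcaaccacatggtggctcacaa
FANS replicate 3: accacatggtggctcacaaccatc
INTACT replicate 1: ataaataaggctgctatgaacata
INTACT replicate 2: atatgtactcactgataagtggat
INTACT replicate 3: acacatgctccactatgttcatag
The word of INTACT replicate 2 was held by 33 of its 2533 members (1.30%), whereas the words of the other libraries were held by 7 to 15 members of their own library (0.163 to 0.247%). Elsewhere the word of INTACT replicate 2 was held by 1 member each of FANS replicate 2 and INTACT replicate 3 and by no member of the other libraries, and by 1 to 4 peaks per library in the regions open in all 6 lists. In regions of 2 to 5 lists it was in 8, 10 and 1 peaks of INTACT replicates 1 to 3 and in none of FANS. The words of INTACT replicates 1 and 3 were held by 21 and 23 members of INTACT replicate 2, more than in their own libraries (10 and 15). The words of the 3 FANS libraries share a run of 19 bases, and they were not particular to FANS. The word of FANS replicate 2 was held by 7, 11 and 8 members of FANS replicates 1 to 3 and by 6, 8 and 2 members of INTACT replicates 1 to 3, and by 77 to 88 peaks per library in regions open in all 6 lists. Reads from one copy of a repeat can align to another, and the part of this in the calls was not tested.

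Motif matches were fewer in single-list regions for 9 of 10 motifs. In percentage points the difference was greatest for the GC box (-10.5), followed by the CTCF core (-5.58) and the ETS motif (-3.65). The SP/KLF GC box, bound by factors of active promoters, was found in 5.09, 6.28 and 5.25% of the FANS members and in 2.04, 2.33 and 2.61% of the INTACT members, against 14.3 to 14.5% in the regions open in all 6 lists. The ETS motif was found in 2.31 to 2.44% of FANS and 1.14 to 1.77% of INTACT members, against 5.55 to 5.67%. The NRF1 motif was found in 0.406 to 0.418% of FANS and 0.204 to 0.355% of INTACT members, against 1.12 to 1.17%. All 3 were lower in 6 of 6 libraries, as were the 6 others named next (two-sided exact permutation test by sign flips, p = 0.03125 each, 0.0347 after Benjamini-Hochberg adjustment over 10 motifs).

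The short string taken as the core of the motif of CTCF, a protein of insulators, was found in 16.8, 16.6 and 15.4% of the FANS members. It was found in 9.80, 9.08 and 11.0% of the INTACT members, against 18.5 to 18.9%. The AP-1 motif, bound by Fos and Jun proteins of active neurons, was found in 12.3, 12.6 and 13.4% of FANS and 12.9, 10.9 and 14.8% of INTACT members, against 15.2 to 15.6%, so the techniques overlapped here (exact permutation p = 1). The CRE of cAMP-responsive promoters was found in 0.300 to 0.395% of FANS and 0.136 to 0.264% of INTACT members, against 0.773 to 0.814%. The NeuroD E-box, a motif of neuronal enhancers, was found in 22.4 to 24.8% of FANS and 21.3 to 24.7% of INTACT members, against 24.9 to 25.7%. The NFI site (14.6 to 16.4%, against 16.4 to 16.8%) and the RFX site (6.63 to 8.23%, against 8.49 to 8.83%) were also lower. The YY1 motif, found in 0.973 to 1.46% of members, did not pass (5 of 6 libraries lower, exact permutation p = 0.0625), although all 10 motifs passed over 100 bp at the summit. The share of windows with a motif depends on GC content, which also differed, and the part of GC in these differences was not tested. No share was taken for genomic windows without a peak, so the part of these matches that short strings give anywhere is not known.

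Most single-list regions lay several kb from the nearest reproducible region. The median distance to the nearest region open in all 6 lists was 7.74, 7.37 and 7.47 kb in FANS and 11.4, 10.9 and 9.59 kb in INTACT. Within 1 kb of such a region lay 7.74, 8.86 and 8.27% of the FANS members and 4.98, 5.53 and 6.38% of the INTACT members, beside 6.14% of the autosomal bases outside such regions. Within 10 kb lay 59.5 to 61.6% in FANS and 45.8 to 51.4% in INTACT, beside 42.1% of those bases. At both distances all 3 FANS libraries lay above the share of bases, while INTACT libraries lay on both sides of it at 1 kb and above it at 10 kb. At 50 kb the shares were 96.1 to 96.5% and 88.9 to 90.4%, beside 81.9%. The difference between the technique means of the medians was 3.12 kb, and with members chosen anew it was 2.05 kb without FANS replicate 3 and 4.71 kb without INTACT replicate 3. The regions with a peak in 2 lists had medians of 7.70 to 8.21 kb in FANS and 10.5 to 12.0 kb in INTACT, close to those of the members.

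The gap to the nearest peak of another list had a median of 2.63, 2.36 and 2.60 kb in FANS and 5.15, 4.45 and 4.32 kb in INTACT. A peak of another list lay within 500 bp of 13.0 to 13.6% of the FANS members and 8.58 to 10.2% of the INTACT members. For most members the nearest peak of another list was thus over 500 bp away. When peaks up to 500 bp apart were joined, there were 25524 single-list regions.

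The regions with a peak in 2 lists showed how the lists pair. Of the 16366, 7345 (44.9%) had both peaks in FANS, 4534 (27.7%) both in INTACT and 4487 (27.4%) had 1 of each, although 9 pairs of lists are mixed and 3 lie within each technique. GC content in these regions was 49.1% ± 0.286 (SD, n = 3) for FANS peaks and 43.0% ± 0.962 (SD, n = 3) for INTACT peaks, nearly the values of the single-list regions. Their annotation split in the same way. The intergenic share was 33.8% ± 0.837 for FANS peaks and 53.0% ± 0.985 for INTACT peaks, and the median distance to a start site 28.3 ± 0.918 kb and 65.3 ± 3.68 kb (SD, n = 3).

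The single-list regions were spread over all 19 autosomes, with 9.20 to 13.5 per Mb, and techniques differed between chromosomes. INTACT supplied 66.3% of the members on chromosome 3, where GC content is the lowest of the autosomes at 40.5%, and 17.4% of those on chromosome 7, at 43.1%. On chromosome 11, the autosome with the highest GC content at 43.8%, it supplied 29.7%. Across autosomes the INTACT share was lower where GC content was higher (Pearson's r = -0.87 and Spearman's rank correlation = -0.90 over 19 chromosomes, -0.88 and -0.89 without chromosome 7). The density of FANS members was higher with GC content (r = 0.90) and that of INTACT members was lower (r = -0.81). Chromosomes of one library share its depth and are not replicates, and the relation is given as a description.

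Chromosome 7 had the lowest density of INTACT members, 1.60 per Mb against 3.33 to 7.99 on the other autosomes, while its 7.60 FANS members per Mb lay within the range of the others. It also had the fewest regions open in all 6 lists, 22.2 per Mb against 26.8 to 35.9. On the X chromosome, which the rule leaves out, the single-list regions numbered 54, 46 and 56 in FANS and 218, 134 and 352 in INTACT, of lists with 2636 to 2809 and 2938 to 3683 peaks there.

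**Figure D5:**
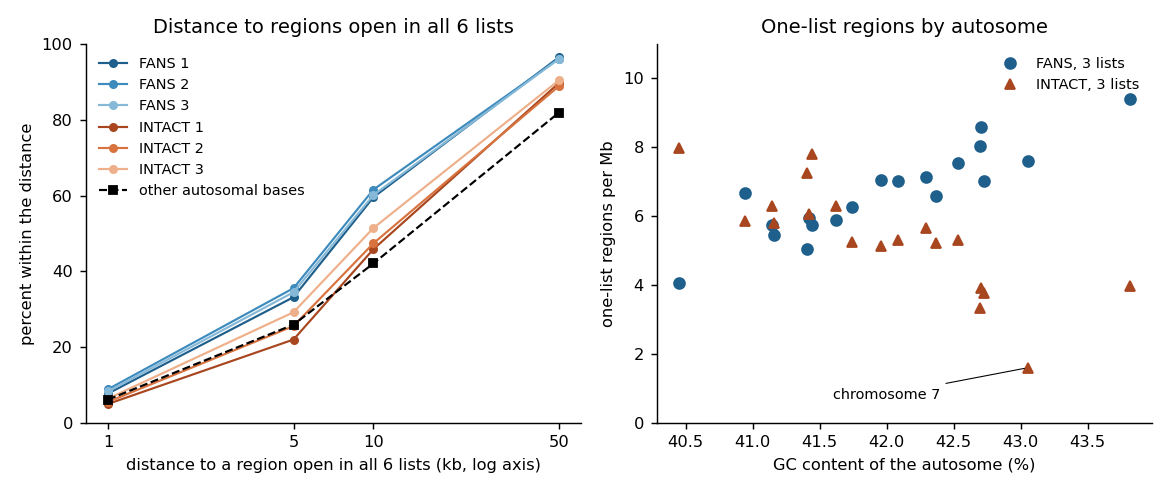
Left, percent of single-list regions of each library within 1, 5, 10 and 50 kb of a region open in all 6 lists (log axis), with the autosomal bases outside those regions as a dashed line; right, single-list regions per Mb of the 3 lists of each technique against the GC content of the 19 autosomes. FANS libraries lie above INTACT libraries at each distance, and chromosome 7 has the lowest INTACT density, 1.60 per Mb.

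Single-list regions in promoters were examined by name. The most significant of FANS replicate 1 lay 40 bp from the start site of H2-Aa, an MHC class II gene of antigen-presenting cells (chromosome 17, 34287666 to 34287982), with a height of 7.90 and a column 9 of 20.5. H2-Aa had a mean of 0.491 normalized counts in the RNA of batch 1. In FANS replicate 2 it lay 94 bp from Otos, a gene of the inner ear (36.2), and in FANS replicate 3 in the promoter of Tango2 (35.9). In INTACT replicate 1 it lay 764 bp from Tctex1d1 (19.4), in INTACT replicate 2 1157 bp from Calb1, which encodes the calcium-binding protein calbindin (12.4), and in INTACT replicate 3 336 bp from Ccr1l1, a chemokine receptor gene (21.3). The next of each library lay at Klhl21, Tmem198, D17Ertd648e, 1700016P04Rik, 4930519F24Rik and Asb4, with column 9 of 15.3, 27.6, 21.4, 19.4, 10.5 and 15.8. Of these 12 regions, 7 were nearest to a gene with a mean of under 5 normalized counts in batch 1, and the other 5 were those of Klhl21, Tmem198, Tango2, D17Ertd648e and Calb1.

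Among the genes of the 8 lists of immediate early genes and cell types, 16 single-list regions lay in promoters, 11 of them (68.8%) from FANS and 5 from INTACT libraries, beside 70.4% from FANS among all single-list regions in promoters (708 in FANS and 297 in INTACT). At Bdnf, the neurotrophin gene with many activity-regulated promoters, INTACT replicate 3 alone had a peak 32 bp from a start site (chromosome 2, 109722762 to 109723122, height 4.08, column 9 of 6.30). FANS replicate 1 alone had a peak 1420 bp from the start of Slc17a7, the vesicular glutamate transporter of cortical neurons (column 9 of 3.77), and 707 bp from that of its relative Slc17a6 (4.82). FANS replicate 3 alone had one 1195 bp from a start of Foxp2, a factor of deep-layer neurons (2.99). INTACT replicate 2 alone had one 722 bp from that of the kinase gene Camk2a (4.15). In Meg3, a long non-coding RNA of neurons, each FANS library had a single-list peak of its own in a promoter (column 9 of 4.52, 3.66 and 2.84), with the start of Mir673 nearest to the first pair and that of Mir770 to the last. Further promoter regions lay in Gad1, Pvalb, Slc4a4, Mbp, Olig1, Olig2 and Csf1r, genes of inhibitory neurons, astrocytes, the oligodendrocyte lineage and microglia, with column 9 between 2.99 and 7.32. None of the 16 reached a column 9 of 10, and 12 of them lay over 500 bp from the start site.

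The bodies of the genes of the 8 lists cover 0.302% of autosomal bases and held 211 single-list regions, or 0.731% of them, beside 0.525 to 0.530% of the peaks in regions open in all 6 lists. The 11 autosomal genes of all neurons held 79 in 1567 kb, led by Syt1, the synaptic calcium sensor, with 28, and Rbfox3, which encodes NeuN, with 23. The genes of excitatory neurons held 48, of which Foxp2 had 9, or 1.95 ± 0.538 per 1000 members in FANS and 1.47 ± 0.442 in INTACT (SD, n = 3), beside 1.02 to 1.05 per 1000 in the regions open in all 6 lists. The 20 immediate early genes held 14, 10 of them in Homer1, which encodes a postsynaptic scaffold protein, and 1 each in Egr4, Nr4a3, Fosl2 and Bdnf. Per 1000 members the immediate early genes held 0.584 ± 0.370 in FANS and 0.392 ± 0.0615 in INTACT (SD, n = 3), beside 0.606 and 0.624 in the regions open in all 6 lists. Inhibitory neurons had 19 regions (0.407 and 0.894 per 1000, beside 0.392 and 0.378), and astrocytes had 24. The oligodendrocyte lineage had 14 (0.633 and 0.337 per 1000, beside 0.571 in both), microglia 7 (0.174 and 0.220, beside 0.227 and 0.228) and vascular cells 6 (0.252 and 0.110, beside 0.279 and 0.277), with FANS given first.

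Per 1000 members, the bodies of the genes of all neurons held 4.42, 3.57 and 3.71 in FANS and 1.58, 1.18 and 1.32 in INTACT, so that every FANS library lay above every INTACT library. In the regions open in all 6 lists both techniques had 1.46 to 1.47. The bodies of the astrocyte genes held 0.465, 0.340 and 0.177 per 1000 in FANS and 1.58, 0.790 and 1.65 in INTACT, the opposite order, against 0.690 to 0.706 in the regions open in all 6 lists. These rest on 61 and 18 regions for the neuronal genes and on 5 and 19 for the astrocyte genes in FANS and INTACT. Few genes carried them. Of the neuronal genes, Rbfox3, which encodes the nuclear antigen NeuN, held 21 regions in FANS and 2 in INTACT, and Syt1, the calcium sensor of synaptic vesicle release, held 20 and 8. Only 5 of the 14 astrocyte genes held any, and Slc4a4, a bicarbonate transporter, held 1 in FANS and 8 in INTACT, and Slc1a2, a glutamate transporter, 4 and 6. Both gave an exact permutation p of 0.1 (adjusted over 8 lists, 0.4), and the other 6 lists overlapped between the techniques (exact p = 0.2 to 1, adjusted 0.4 to 1). The lists were chosen with earlier results of these data known, and no list passed.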

How the data were processed

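ATAC-seq was made from FANS and INTACT nuclei (3 libraries each) and nuclear RNA-seq in 3 batches. Per the study's methods and the labels, the authors checked reads with FastQC, trimmed them with Trimmomatic, aligned ATAC reads with Bowtie2 to mm10, and used Samtools, Picard and, library by library, the peak caller MACS2. Bowtie2 was run with default settings, and properly paired reads of high mapping quality were kept without duplicates. The MACS2 settings and any shift of read ends are not given in the sources used here. The deposited lists hold, for each peak, a score (column 5, 10 times column 9 for nearly all peaks, not used further), the fold enrichment ratio at the summit (column 7, here the height), the -log10 p-value (column 8, not used further) and the -log10 q-value (column 9). The deposited RNA signal is read counts per gene (STAR, HTSeq) divided by size factors (DESeq) by the authors. It served to call a gene detected (mean of at least 5 in batch 1) and to give the level of a named gene, and of 24421 genes 23204 matched RefSeq by symbol and 1068 by an older symbol.

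Peaks were merged where they overlapped by at least 1 bp. Promoters were 1.5 kb to each side of curated RefSeq start sites of GRCm38.p6, then exons, introns and intergenic sequence were assigned at the summit. GC, CpG, repeat share (soft-masked bases) and motifs were taken over 200 bp at the summit. Libraries were the units of every test: two-sided exact sign flips of the difference between single-list regions and regions of all 6 lists in 6 libraries, and two-sided exact permutation of 3 INTACT against 3 FANS libraries, with Benjamini-Hochberg adjustment within each family. Named regions were the 3 with the highest column 9 in each library, the 2 highest in promoters, and those in promoters of listed immediate early, excitatory and pan-neuronal genes. Those of Gad1, Pvalb, Slc4a4, Mbp, Olig1, Olig2 and Csf1r were named after their values were seen. The values of 1 listed gene are not reported here. The distance to regions open in all 6 lists, for which a test had been planned, is given without one because it is made from the lists that chose the members. Members and lists were chosen with earlier results of these data known. Alternatives changed the overlap, the column 9 threshold, the length of the lists, the chromosomes, the window and the promoter definition, or left out a library. The scripts were tested on simulated data and run with Python 3.11.15, numpy 2.4.6, pandas 2.3.3, scipy 1.17.1 and matplotlib 3.10.9.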

Additional observations from a re-analysis of the deposited data

Results flagged for a closer look

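The intergenic share of single-list regions against regions open in all 6 lists went in opposite directions in the techniques. The regions with a peak in 2 lists split likewise, with an intergenic share of 33.8% ± 0.837 for FANS peaks and 53.0% ± 0.985 for INTACT peaks (SD, n = 3), so the split was not particular to single-list regions. For these, the difference from the regions open in all 6 lists was -7.36, -6.99 and -4.75 percentage points in FANS replicates 1 to 3 (mean -6.37) and 11.0, 9.64 and 11.4 points in INTACT replicates 1 to 3 (mean 10.7). The difference between these differences was 17.0 points (two-sided exact permutation p = 0.1, the smallest that 3 against 3 libraries allow, 0.1 adjusted over 9 measures). Among members with a column 9 of at least 5 the opposite directions were lost, with differences of -1.06, -3.11 and 0.112 points in FANS and 19.0, 21.1 and 19.0 points in INTACT, an alternative for single libraries chosen after seeing the data.

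The distance to the nearest start site did likewise. The difference in medians was -0.962, -2.74 and -0.982 kb in FANS and 31.1, 30.7 and 28.5 kb in INTACT, and the difference between the techniques was 31.6 kb (two-sided exact permutation p = 0.1, adjusted 0.1). Among members with a column 9 of at least 5 the differences were 0.509, -2.94 and -2.05 kb in FANS and 39.6, 37.5 and 42.4 kb in INTACT. The regions with a peak in 2 lists had medians of 28.3 ± 0.918 kb and 65.3 ± 3.68 kb (SD, n = 3).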

How the results depend on the processing

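The number of single-list regions stayed within 1.5 times the reported 28866 under 12 of 13 alternatives, and was 10857 when their own peak had to reach a column 9 of 5. In that setting the intron difference was 5.76 percentage points (exact permutation p = 0.25). The mean number in INTACT minus that in FANS was -945 as reported. It was 2215 in lists of equal length, where the counts ran in the reverse order of the deposited lengths. Leaving out 1 library gave -3050 to 785, with -3050, -2956 and -2856 without FANS replicates 1, 2 and 3 and, above 0, 300.5 without INTACT replicate 1 and 785 without INTACT replicate 2. Each of these settings held unequal numbers of lists per technique. The difference between techniques in the distance to regions open in all 6 lists, 3.12 kb as reported, was 4.23 kb with a column 9 of 5 in every list, 4.82 kb with this demand on the own peak alone, and 2.05 to 4.71 kb without 1 library. The repeat difference between techniques was 2.76 to 8.45 points without 1 library. Over whole peaks the GC difference was -3.08 points (exact permutation p = 0.0938). With 5 libraries the exact test cannot go below 0.0625, so no call could pass, and the differences without 1 library ranged from -4.45 to -3.73 points in GC content, from -14.4 to -13.3 in promoter share, from 10.0 to 10.6 in intron share and from 4.07 to 6.01 in repeat share. Deviations of same-numbered FANS and INTACT libraries had correlations of 0.00123, 0.0110 and 0.00250 over the 74590 regions open in all 6 lists. For libraries of unlike number the correlations were -0.00704 to 0.00420. Whether the numbers pair the libraries cannot be told from these values. With the replicate number as a block the smallest exact p is 0.25, which the differences of -5.83 points in GC content, -2.19 in promoter share and 17.0 in intergenic share each gave. The number (-945) and the distance (3.12 kb) have no test and the same value with the block. With the same block, 5 of 8 gene lists had one direction in all pairs. This is a weaker demand than the full separation of the techniques, which 2 lists had. The lists give no depth, which limits what absence from a list can mean.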
